A study of Rattus norvegicus with 5 samples.

Results

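Collagens and extracellular matrix glycoproteins were examined in lung nodules and primary tumours of a rat glioma xenograft, as 36 genes listed by name in 6 classes. Each gene was read through the array probe whose RefSeq accession maps to it, and through the brightest such probe where there were several. A named probe was found for 28 of the 36 genes, among 15442 gene symbols named on the array. Of these, 27 entered the tests together with all other features, 18899 in all. A feature is the single probe kept for a named gene, or an unnamed probe, and it was tested where some group had it well above background on every array of that group. The probe of Lum, a small collagen-binding proteoglycan, was not well above background on any of the 5 arrays and was not tested. Col5a2, Col6a1, Col6a3, Col12a1, Col4a2, Lamb1, Lama4 and Lox had no named probe and were not analysed here.

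The samples were 3 metastatic lung nodules taken 6 weeks after γ-irradiation, 1 γ-irradiated primary tumour of the same time point, and 1 non-irradiated primary tumour, at 6 weeks from grafting of the cells. All came from the rat glioma line C6-L grown in BALB/c nu/nu nude mice, an athymic strain, with an age of 6 weeks in the labels. The submitters set the nodules against the irradiated primary and the irradiated against the non-irradiated primary, and the nodules are set here against the non-irradiated primary as well. Total RNA of each sample was hybridised to 1 array of a single-colour (Cy3) Agilent rat design, so each primary is represented by 1 array. The array reads rat sequence while the hosts are mice, and matrix RNA of the grafted cells and of host cells cannot be told apart in these signals. In such bulk tissue, fewer cells of a type and less RNA per cell cannot be told apart either.

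Fibrillar collagens form the cross-linked fibres that give a tissue its tensile strength, and collagen IV, laminins and collagens XV and XVIII build or border basement membranes beneath endothelium and epithelium. Elastin, laid down on fibrillin microfibrils with the help of fibulins, lets vessels and lung stretch and recoil. Matricellular proteins such as tenascin C, thrombospondins and periostin are secreted into the matrix and act on cell adhesion and signalling, and gliomas are known for a matrix rich in tenascin C, fibronectin and versican.

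The share of gene spots well above background was 69.8% to 73.5% per array, with 0 saturated. Over all probes the arrays correlated at 0.985 to 0.992 between nodules, at 0.975 to 0.981 between nodules and the irradiated primary, at 0.970 to 0.976 between nodules and the non-irradiated primary, and at 0.979 between the primaries. Values below are log2 scaled signals, the log2 signal of a probe minus the 75th percentile of its own array, and a level of 1 gene is never set against that of another. All nodules shared 1 row of the slide and the primaries another, which leaves group and slide row such that they cannot be told apart. Differences between nodules and a primary were tested with limma on all features, with Benjamini-Hochberg adjustment, and called at an adjusted p under 0.05. No label ties the nodules to separate animals. The p-values therefore reflect only how far these 3 samples differ among themselves, a spread that a lone primary is assumed to share.

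Markers of the glioma and of other cell types were read from lists of genes, and not all of these had a probe well above background. Gfap, the astrocyte filament, and Olig2, a glial transcription factor, were not well above background on any array, while 12 of the 14 glial and glioma markers listed were tested. Of these, 0 passed limma against the irradiated primary (smallest adjusted p = 0.0827), with 2 higher and 2 lower at an unadjusted p under 0.05. Of all 18899 features, 3.73% passed there, with 1883 higher and 2269 lower at an unadjusted p under 0.05. Against the non-irradiated primary 2, Nes and Ncam1, fell (adjusted p = 0.0364 and 0.0182). Limma called 18.6% of all features against that primary, a share near that of the 12 markers, so that the count is not a result about them. Vim, the filament of mesenchymal and glioma cells, had 5.48, 6.13 and 6.23 in nodules 1, 2 and 3, against 5.45 in the irradiated and 5.04 in the non-irradiated primary. Nes, a filament of neural progenitors and glioma cells, had 1.72, 1.33 and 0.46 in the nodules, against 3.02 in the irradiated and 3.60 in the non-irradiated primary. All nodules lay above both primaries for Vim, which passed neither test, and below both for Nes. The mean over 9 alveolar and airway markers was 1.48, 0.02 and -3.14 in nodules 1, 2 and 3, against -3.05 in the irradiated and -2.29 in the non-irradiated primary, with nodules 1 and 2 above the other 3 arrays. Sftpa1 and Sftpb, surfactant proteins of alveolar cells, were not well above background in nodule 3 or in either primary. Nodule 3 stood apart by the mean of heart genes, at -3.61, -3.63 and -0.01 over 8 markers in nodules 1, 2 and 3, against -1.84 in the irradiated and -3.63 in the non-irradiated primary. Within that list Myl2 and Myl3 went otherwise. They were highest in the irradiated primary (-2.70 and -2.09), against -8.49 and -6.24 in nodule 3.

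Means of stromal marker lists also differed between arrays, and their part in the matrix results below was not tested. Against the irradiated primary limma called 0 of 6 endothelial and 0 of 10 macrophage markers. Of 12 pericyte and smooth muscle markers it called only Des, which fell, beside 3.73% of all features. Against the non-irradiated primary, 1 endothelial and 1 fibroblast marker rose, as did 1 pericyte and smooth muscle marker, while 2 of that list fell. Of the macrophage markers 4 rose and 2 fell, beside 9.74% of all features called higher and 8.86% lower. The mean of 12 pericyte and smooth muscle markers was -1.35, -2.81 and -3.14 in nodules 1, 2 and 3, against -2.59 in the irradiated and -3.55 in the non-irradiated primary. Tagln, a protein of contractile cells, was highest in nodule 1, at 3.55, 0.41 and -0.33 in the nodules, against 1.48 in the irradiated and 0.40 in the non-irradiated primary. The 6 endothelial markers averaged -1.10, -1.85 and -2.45 in nodules 1, 2 and 3, against -2.84 in the irradiated and -3.07 in the non-irradiated primary, while Tie1, Tek, Emcn, Cldn5 and Sox17 were not well above background on any array. Both list means were highest in nodule 1. The 10 fibroblast markers averaged -0.53, -0.60 and -0.67 in the nodules, against -0.88 in the irradiated and -0.998 in the non-irradiated primary, and the 10 macrophage markers averaged -1.75, -1.73 and -1.82, against -1.71 and -2.13. Of the fibroblast list, Fap, a protease of activated fibroblasts, rose against the irradiated primary (9.03-fold, adjusted p = 0.0256), while the list was split, with 5 markers higher and 5 lower and a median difference of 0.11. Scara5, a receptor of fibroblasts, had 1.19, -1.21 and -0.74 in the nodules, against 2.54 in the irradiated primary (adjusted p = 0.193). Tcf21, Meox2, Thy1 and Ly6c were not well above background on any array. Skeletal muscle markers, 12 of which were tested, averaged -3.83, -3.69 and -3.32 in the nodules, against 2.06 in the irradiated and 0.06 in the non-irradiated primary. Of the 12, 11 fell in the nodules against the irradiated and 10 against the non-irradiated primary, where limma called 2.81% and 8.86% of all features lower.

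**Figure D1:**
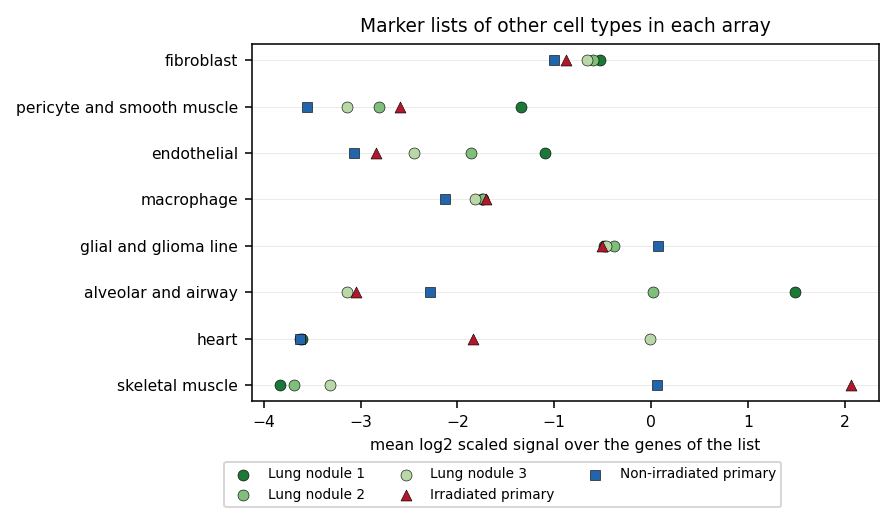
Mean log2 scaled signal (horizontal axis) of the tested genes of 8 marker lists (vertical axis) in the 3 lung nodules (green circles), the irradiated primary (red triangles) and the non-irradiated primary (blue squares). Alveolar and airway genes are high in nodules 1 and 2, heart genes in nodule 3 (-0.01) and skeletal muscle genes in the primaries (2.06 and 0.06); positions of different lists are not comparable.

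Against the irradiated primary, the nodules held more RNA of elastin and of the collagen III chain Col3a1 and less of tenascin C and thrombospondin 1, with folds between 1.79 and 6.13. Of the 27 tested members, 2 rose (Eln, Col3a1) and 2 fell (Tnc, Thbs1), where limma called 3.73% of all features, 0.91% higher and 2.81% lower. The median log2 difference of the 27 members was 0.32, against 0.03 over all features. All 3 nodules lay above the irradiated primary for 14 of the 27 and below it for 4, against 36.2% and 31.8% of all features. The group means were at least 2-fold apart for 9 members and 10.7% of all features. Of the 27, 2 entered the tests only through the nodules, Col11a1 and Fbln5, and both are among the 14 and the 9. With only probes well above background on all 5 arrays, the member median was 0.30. Without nodule 2 limma called 0 members and 14 of 18979 features, while 8 members and 2700 features had an unadjusted p under 0.05. Without nodule 3 it called 1 member, Eln, and 184 of 19135 features. Without nodule 1 it called 11 members and 3229 of 19061 features. Col3a1 missed the threshold with no filter on dim probes or no intensity trend in the fit, at an adjusted p of up to 0.105.

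Against the non-irradiated primary, the nodules held more RNA of the collagen chains Col1a2 and Col3a1 and of elastin, and less of the collagen V chain Col5a3 and of periostin, with folds between 1.77 and 6.09. These 3 rises and 2 falls among 27 members stood beside 18.6% of all features called by limma, 9.74% higher and 8.86% lower, a share near that of the members, so that the count is not a result about them. The median difference of the members was 0.31, against 0.04 over all features, and all 3 nodules lay above this primary for 13 members and below it for 6, against 40.1% and 36.8% of all features. The means were at least 2-fold apart for 7 members and 17.8% of all features. Col11a1 and Fbln5, which entered only through the nodules, are among the 13, and Fbln5 is among the 7. With only probes well above background on all 5 arrays, the member median was 0.26. Both comparisons share the 3 nodules. Without nodule 2 limma called 0 members and 0 of 18979 features, while 11 members and 5001 features had an unadjusted p under 0.05. Without nodule 3 it called 1 member, Col3a1, and 295 of 19135 features. Without nodule 1 it called 13 members and 6469 of 19061 features.

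**Figure D2:**
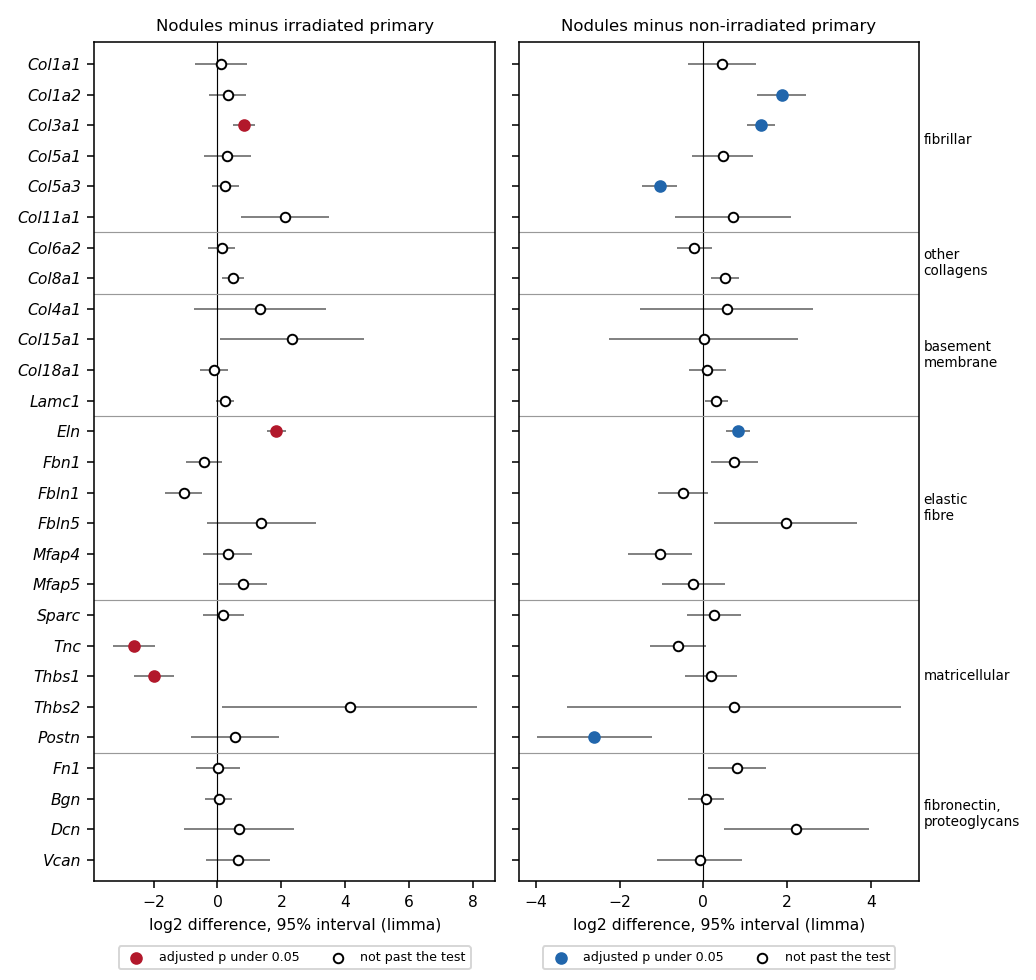
Log2 difference (horizontal axis, with its 95% interval from limma) of the mean of 3 lung nodules from the irradiated primary (left panel) and from the non-irradiated primary (right panel) for the 27 tested members (vertical axis, by class). Filled points passed the test: Eln and Col3a1 on the right and Tnc and Thbs1 on the left of 0 in the left panel, Col1a2, Col3a1 and Eln on the right and Col5a3 and Postn on the left of 0 in the right panel.

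Among the fibrillar collagens, 1 of the 6 tested members rose against the irradiated primary, and 2 rose and 1 fell against the non-irradiated primary. Of all features, limma called 0.91% higher against the irradiated primary, and 9.74% higher and 8.86% lower against the non-irradiated primary. Col3a1, the single chain of collagen III, had 4.52, 4.55 and 4.36 in nodules 1, 2 and 3, against 3.64 in the irradiated and 3.10 in the non-irradiated primary. All nodules lay above both primaries. The difference was 0.84 ± 0.13 (SE, n = 3 nodules, limma) against the irradiated primary, a 1.79-fold rise at an adjusted p of 0.0477, and 1.38 ± 0.13 against the non-irradiated primary, a 2.59-fold rise at 0.0125. Col1a2, the second chain of collagen I, had 6.02, 5.52 and 5.64 in the nodules, against 5.41 in the irradiated and 3.86 in the non-irradiated primary. The non-irradiated primary stood below the other 4 arrays. Col1a2 rose 3.65-fold against that primary (1.87 ± 0.22, adjusted p = 0.0146), while its difference from the irradiated primary was 0.32, with a 95% interval of -0.26 to 0.90.

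Col1a1, the other chain of collagen I, had 4.53, 3.82 and 3.89 in the nodules, against 3.97 in the irradiated and 3.64 in the non-irradiated primary, and passed neither test. Nodule 1 lay above all other arrays and nodules 2 and 3 lay between the primaries. A second probe of Col1a1 gave 3.36, 3.12 and 3.19 in the nodules, against 3.57 in the irradiated and 2.68 in the non-irradiated primary, so the probes differ in sign against the irradiated primary (0.11 for the brighter, -0.35 for the other). Col5a3, a collagen V chain that joins mixed fibrils, had 2.24, 1.99 and 1.95 in the nodules, against 1.81 in the irradiated and 3.10 in the non-irradiated primary. The non-irradiated primary was the high array, and Col5a3 was 2.06-fold lower in the nodules than there (-1.04 ± 0.16, adjusted p = 0.0213). Col5a1, which controls fibril diameter, had 2.08, 1.39 and 1.74 in the nodules, against 1.43 in the irradiated and 1.27 in the non-irradiated primary. Its nodules overlapped the irradiated primary and it passed neither test (intervals -0.43 to 1.04 and -0.27 to 1.19).

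Col11a1, a minor fibrillar chain of cartilage and activated stroma, was well above background in the nodules only, at -4.91, -5.08 and -6.00, with measured values of -7.43 in the irradiated and -6.04 in the non-irradiated primary. Where a primary was not well above background, a lower bound of the fold was taken against the higher of its own value and the lowest signal well above background on its array. Col11a1 was at least 1.63-fold higher in the nodules than in the irradiated primary (adjusted p = 0.116) and at least 1.64-fold higher than in the non-irradiated primary (adjusted p = 0.387), neither of which passed.

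The other interstitial collagens passed neither test. Col6a2, a chain of the beaded filaments of collagen VI, had 5.71, 6.02 and 5.87 in the nodules, against 5.74 in the irradiated and 6.09 in the non-irradiated primary. The irradiated primary lay inside the range of the nodules and the non-irradiated primary just above it. Col8a1, a network collagen of vessel walls, had 2.97, 2.78 and 2.91 in the nodules, against 2.39 in the irradiated and 2.38 in the non-irradiated primary. All nodules lay above both primaries, which were nearly equal. The differences of Col8a1 were 0.49 ± 0.13 (adjusted p = 0.124) and 0.51 ± 0.13 (adjusted p = 0.0565), with 95% intervals of 0.16 to 0.83 and 0.18 to 0.85.

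In the basement membrane class, 0 of 4 members passed either test, where limma called 3.73% and 18.6% of all features. At an unadjusted p under 0.05 by limma there was 1 member, Col15a1, against the irradiated primary and 1, Lamc1, against the non-irradiated primary. Of all 18899 features, 4152 and 6968 had an unadjusted p under 0.05 in these comparisons. Col4a1, a chain of the collagen IV network, had -0.12, -1.10 and -2.20 in nodules 1, 2 and 3, against -2.46 in the irradiated and -1.70 in the non-irradiated primary. Nodule 1 was highest, and nodule 3 lay between the primaries. Its differences had 95% intervals of -0.74 to 3.38 and -1.51 to 2.62. A second, dimmer Col4a1 probe gave -3.32, -3.91 and -4.12 in the nodules, against -4.46 in the irradiated and -4.33 in the non-irradiated primary. On that probe all nodules lay above both primaries. Col15a1, a collagen that borders the basement membranes of muscle and vessels, had -3.40, -1.46 and -1.43 in the nodules, against -4.43 in the irradiated and -2.10 in the non-irradiated primary. Nodule 1 was the lowest nodule for Col15a1, below the non-irradiated primary. The difference was 2.33 ± 0.86 against the irradiated primary (adjusted p = 0.215) and 0.0041 ± 0.86 against the non-irradiated primary (interval -2.24 to 2.25).

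Lamc1, the laminin γ1 chain that most laminins share, varied least among the nodules, at 2.83, 2.85 and 2.89, against 2.63 in the irradiated and 2.55 in the non-irradiated primary. All nodules lay above both primaries, by 0.23 ± 0.11 (adjusted p = 0.304) and 0.31 ± 0.11 (adjusted p = 0.113). A second Lamc1 probe put the nodules below the irradiated primary (-0.36). Col18a1, the source of the fragment endostatin, had 3.46, 3.18 and 3.13 in the nodules, against 3.35 in the irradiated and 3.17 in the non-irradiated primary, and its groups overlapped.

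The elastic fibre class held the member with the smallest adjusted p of all against the irradiated primary. Eln, the elastin precursor, had 3.48, 3.43 and 3.40 in the nodules, against 1.59 in the irradiated and 2.62 in the non-irradiated primary. The nodules lay within 0.080 of each other and above both primaries, and the irradiated primary was the lowest array. Eln rose 3.60-fold against the irradiated primary (1.85 ± 0.11, SE, n = 3 nodules, adjusted p = 0.00798) and 1.77-fold against the non-irradiated primary (0.82 ± 0.11, adjusted p = 0.0175). A second, dimmer Eln probe gave -3.10, -2.41 and -2.42 in the nodules, against -3.92 in the irradiated and -2.49 in the non-irradiated primary. That probe also had the irradiated primary lowest, with the nodules 1.28 above it, but its nodules overlapped the non-irradiated primary, with a difference of -0.15. With the mean over its probes Eln missed the threshold against the non-irradiated primary (adjusted p = 0.256).

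The other 5 elastic fibre members passed neither test. Fbln1, a fibulin of elastic fibres and basement membranes, had -3.19, -2.85 and -2.88 in the nodules, against -1.91 in the irradiated and -2.49 in the non-irradiated primary. All nodules lay below both primaries, with differences of -1.06 ± 0.23 (adjusted p = 0.0867) and -0.48 ± 0.23 (adjusted p = 0.200). Fbn1, the fibrillin of microfibrils, had 1.05, 0.79 and 1.28 in the nodules, against 1.47 in the irradiated and 0.30 in the non-irradiated primary. The nodules lay between the primaries, 0.73 ± 0.22 above the non-irradiated one (adjusted p = 0.0792).

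Mfap4, a microfibril-associated glycoprotein of elastic tissue, had -1.08, -1.17 and -1.71 in the nodules, against -1.64 in the irradiated and -0.29 in the non-irradiated primary. The nodules overlapped the irradiated primary and all lay below the non-irradiated primary, with a difference of -1.03 ± 0.29 (adjusted p = 0.0739). Mfap5, another microfibril glycoprotein, had -0.26, -0.89 and -0.77 in the nodules, against -1.44 in the irradiated and -0.40 in the non-irradiated primary, so only the irradiated primary lay outside the range of the nodules. Fbln5, a fibulin needed for elastic fibre assembly, was well above background in the nodules only, at -3.68, -5.00 and -5.11, with measured values of -5.97 in the irradiated and -6.56 in the non-irradiated primary. It was at least 2.59-fold higher in the nodules than in the irradiated primary (adjusted p = 0.306) and at least 2.88-fold higher than in the non-irradiated primary (adjusted p = 0.102), neither of which passed.

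Of the 5 matricellular members, 2 fell against the irradiated and 1 against the non-irradiated primary, while the class medians were 0.19 and 0.18. In the same comparisons limma called 2.81% and 8.86% of all features lower, and the medians over all features were 0.03 and 0.04. Tnc, tenascin C, an anti-adhesive glycoprotein of gliomas and healing wounds, had -2.17, -1.67 and -1.71 in the nodules, against 0.77 in the irradiated and -1.25 in the non-irradiated primary. The irradiated primary stood above the 4 other arrays. Tnc was 6.13-fold lower in the nodules than in the irradiated primary (-2.62 ± 0.26, SE, n = 3 nodules, adjusted p = 0.0193), and its difference from the non-irradiated primary was -0.60 (interval -1.26 to 0.067). Thbs1, thrombospondin 1, an activator of latent TGF-β and inhibitor of vessel growth, had -3.76, -3.71 and -4.02 in the nodules, against -1.84 in the irradiated and -4.01 in the non-irradiated primary. As with Tnc, only the irradiated primary was high, and the non-irradiated primary lay within the range of the nodules. Thbs1 was 3.98-fold lower in the nodules than in the irradiated primary (-1.99 ± 0.24, adjusted p = 0.0306).

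Postn, periostin, a collagen-binding protein of activated stroma, had -2.49, -3.24 and -3.81 in the nodules, against -3.73 in the irradiated and -0.58 in the non-irradiated primary. Here the non-irradiated primary was the high array, and the irradiated primary lay within the range of the nodules. Postn was 6.09-fold lower in the nodules than in the non-irradiated primary (-2.61 ± 0.53, adjusted p = 0.0360), a call that was lost with no intensity trend in the fit (adjusted p = 0.0562). Thbs2, thrombospondin 2, a regulator of collagen fibril assembly, had -1.90, 1.36 and 1.83 in the nodules, against -3.71 in the irradiated and -0.31 in the non-irradiated primary. Nodule 1 lay far below nodules 2 and 3 and below the non-irradiated primary. The nodules averaged 4.14 ± 1.53 above the irradiated primary, which missed the threshold (adjusted p = 0.214, interval 0.15 to 8.12). Without nodule 1 Thbs2 was among the 11 members called against the irradiated primary. Sparc, a collagen-binding counter-adhesive protein, had 6.32, 5.82 and 5.81 in the nodules, against 5.80 in the irradiated and 5.72 in the non-irradiated primary, with nodule 1 highest and the other arrays close together.

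Fibronectin and the proteoglycans passed neither test. Fn1, the fibronectin that cells bind through integrins, had 7.17, 6.60 and 6.64 in the nodules, against 6.79 in the irradiated and 5.99 in the non-irradiated primary. All nodules lay above the non-irradiated primary, by 0.81 ± 0.26 (adjusted p = 0.0992), and they overlapped the irradiated primary. Dcn, decorin, a small proteoglycan that coats collagen fibrils, had -3.80, -2.56 and -2.19 in the nodules, against -3.53 in the irradiated and -5.07 in the non-irradiated primary. Nodule 1 lay below the irradiated primary, and all nodules lay above the non-irradiated primary, by 2.22 ± 0.66 (adjusted p = 0.0811, interval 0.49 to 3.95). Bgn, biglycan, a relative of decorin, had 7.42, 7.30 and 7.12 in the nodules, against 7.25 in the irradiated and 7.21 in the non-irradiated primary. Vcan, versican, a large proteoglycan that binds hyaluronan, had 2.92, 3.78 and 3.78 in the nodules, against 2.85 in the irradiated and 3.59 in the non-irradiated primary. The groups of Bgn overlapped on this brighter of its probes. On a second, dimmer Bgn probe all nodules lay above both primaries. The mean difference on the dimmer probe was 0.40 from the irradiated and 0.49 from the non-irradiated primary. For Vcan nodule 1 lay near the irradiated primary while nodules 2 and 3 lay near the non-irradiated one. A second Vcan probe gave 1.91, 2.85 and 2.82 in the nodules, against 2.30 in the irradiated and 2.43 in the non-irradiated primary. On that probe nodule 1 lay below both primaries and nodules 2 and 3 above both.

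**Figure D3:**
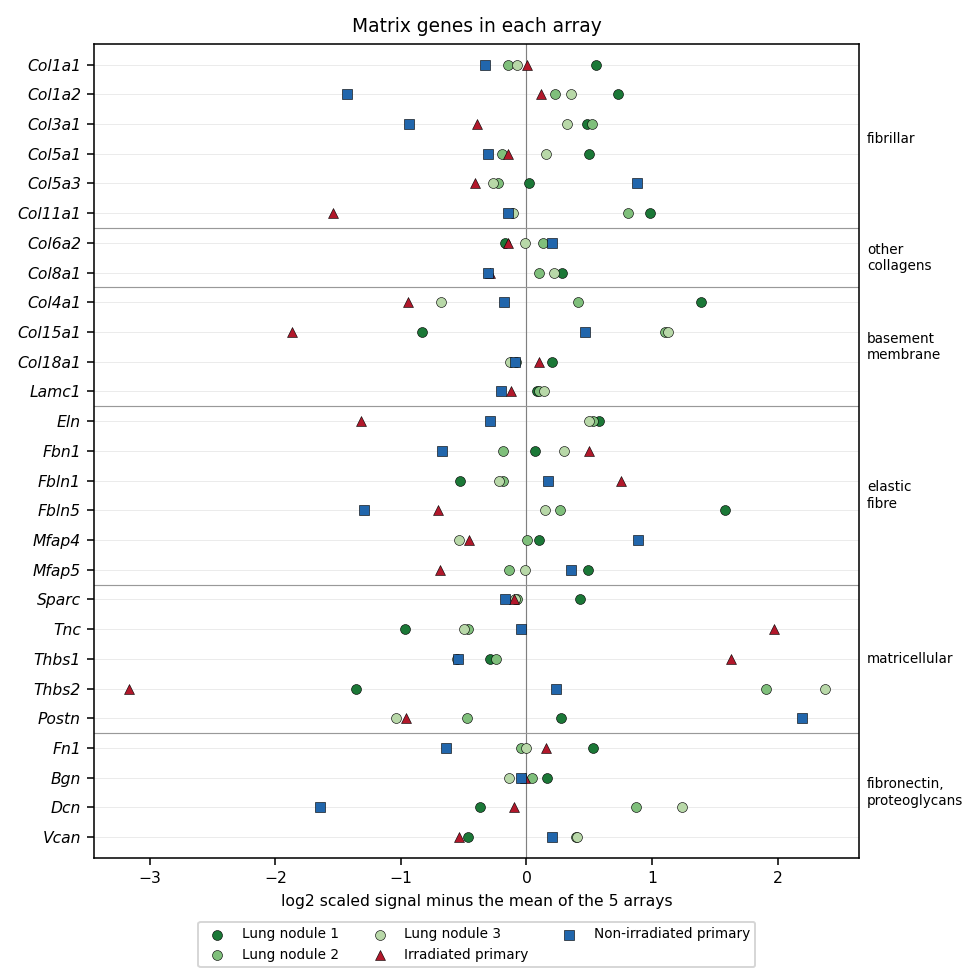
Log2 scaled signal of the 27 tested members (vertical axis, by class) minus the mean of the 5 arrays (horizontal axis), for the 3 lung nodules (green circles), the irradiated primary (red triangle) and the non-irradiated primary (blue square), 1 point per array. The irradiated primary lies furthest to the right for Tnc and Thbs1, the non-irradiated primary for Postn and Col5a3, and the nodules of Eln lie within 0.080 of each other.

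Between the primaries, thrombospondin 1, tenascin C and Col1a2 were higher in the irradiated tumour, and thrombospondin 2, periostin and Col15a1 were lower there. The irradiated primary was higher by at least 2-fold for 5 members and lower for 7, of 25 members well above background in at least 1 of these arrays, where 16.4% of all features were 2-fold apart, 9.3% higher and 7.12% lower. With 1 array per primary there is no test and no spread between tumours, and each value also holds any difference of muscle RNA between these arrays given above, whose part in the result was not tested. The higher members were Thbs1 (4.51-fold), Tnc (4.05-fold), Col1a2 (2.92-fold), Dcn (2.91-fold) and Fbn1 (2.25-fold). The lower members were Thbs2 (10.6-fold lower), Postn (8.88-fold), Col15a1 (5.02-fold), Mfap4 (2.55-fold), Col5a3 (2.45-fold), Mfap5 (2.06-fold) and Eln (2.04-fold), which include 3 of the 5 elastic fibre members kept.

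These gaps were larger than the range of the 3 nodules for all 12 members but Thbs2 and Dcn, whose nodules spanned 3.73 and 1.61 against gaps of -3.40 and 1.54. The 12 members were chosen by the size of this gap, so the comparison only describes them. Members under 2-fold went both ways, as Col3a1 with a gap of 0.54 and a range of 0.19, and Col4a1 with -0.76 and 2.07. The second probe of Eln had the same direction between the primaries (-1.43). With normexp background correction 10 members were at least 2-fold apart, without Dcn (0.68 in place of 1.54) and Mfap5 (-0.94 in place of -1.04). That correction also moved Thbs1 (1.41 in place of 2.17), Col15a1 (-1.54 in place of -2.33), Postn (-2.52 in place of -3.15) and Thbs2 (-2.79 in place of -3.40). The class medians were 0.34 for fibrillar collagens, -0.34 for basement membrane members, -1.03 for elastic fibre members and 0.07 for matricellular members, the last with 2 members higher and 2 lower by at least 2-fold. The median over the 25 members was 0.07, against 0.02 over all features.

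**Figure D4:**
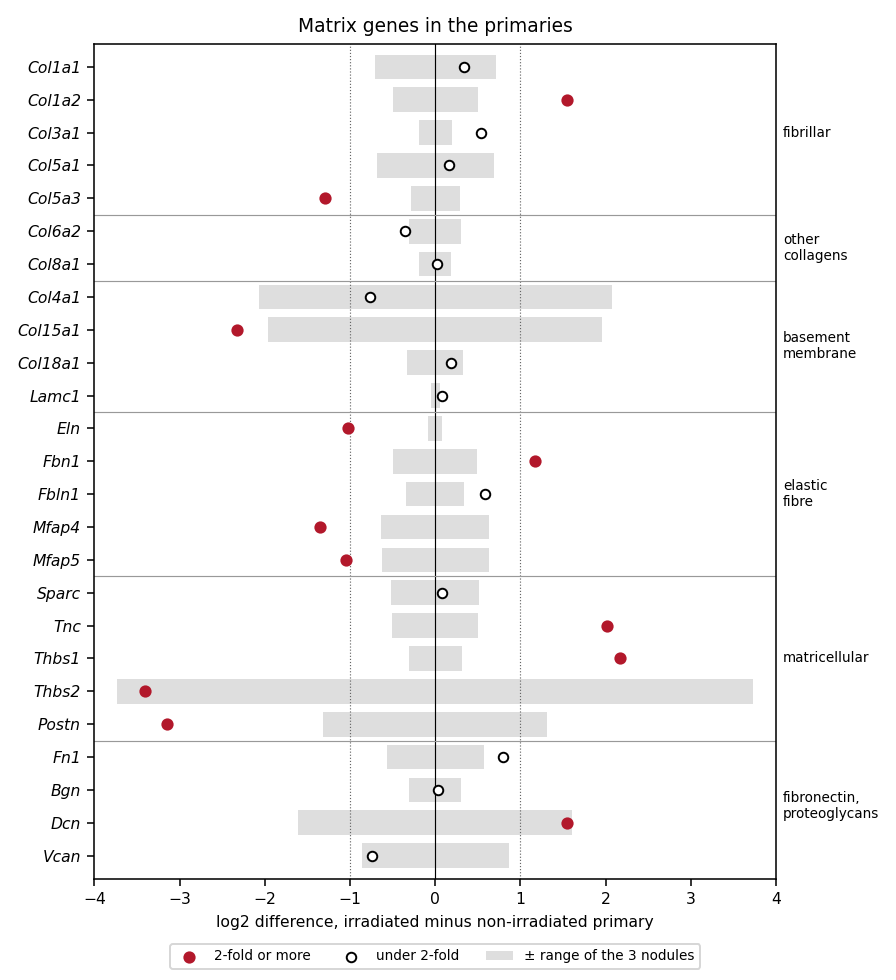
Log2 difference of the irradiated from the non-irradiated primary (horizontal axis, 1 array each, dotted lines at 2-fold) for the 25 members well above background in at least 1 primary (vertical axis, by class), with grey bars that span plus and minus the range of the 3 lung nodules of the same gene. Thbs1 and Tnc lie furthest to the right (2.17 and 2.02) and Thbs2 and Postn furthest to the left (-3.40 and -3.15), Thbs2 inside its grey bar.

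Among the nodules, 7 members were at least 2-fold apart, most often with nodule 1 as the array apart. Between nodules 1 and 2, 4 of 27 members were at least 2-fold apart (5.18% of all features), Fbln5 higher in nodule 1 and Col15a1, Thbs2 and Dcn lower. Between nodules 1 and 3 there were 7 (7.02% of all features), with Col11a1, Col4a1, Fbln5 and Postn higher in nodule 1 and Col15a1, Thbs2 and Dcn lower. Between nodules 2 and 3, Col4a1 alone was 2-fold apart, higher in nodule 2 (2.24% of all features). Nodule 1 was also the array with the highest endothelial and contractile marker means given above, and their part in these gaps was not tested.

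Beyond the 36 genes, 75 other matrix genes were tested in lists of collagen-modifying enzymes and chaperones, crosslinkers, other collagens, other basement membrane and elastic fibre genes, and other glycoproteins and proteoglycans. Against the irradiated primary, limma called 0 of them higher and 4 lower, where 0.91% of all features were called higher and 2.81% lower. At an unadjusted p under 0.05 by limma, 13 of the 75 were higher and 17 lower, against 1883 and 2269 of the 18899 features. The median difference of the 75 was -0.10. P4ha1, the catalytic subunit of the prolyl hydroxylase that stabilises collagen, had -0.52, -0.37 and -0.31 in the nodules, against 0.93 in the irradiated and -0.67 in the non-irradiated primary (nodules minus irradiated primary -1.33 ± 0.15, adjusted p = 0.0270). P4hb, the partner subunit of that enzyme, had 4.12, 4.04 and 4.10 in the nodules, against 4.78 in the irradiated and 4.50 in the non-irradiated primary (-0.69 ± 0.11, adjusted p = 0.0499). These were the 2 of 20 modifying enzymes and chaperones that fell. Loxl1, a lysyl oxidase of elastin, had -0.23, -0.18 and -0.41 in the nodules, against 1.07 in the irradiated and 1.20 in the non-irradiated primary (-1.34 ± 0.15, adjusted p = 0.0270). Ccn1, a matricellular protein of injured and growing tissue, had -0.58, -0.00081 and -0.37 in the nodules, against 2.04 in the irradiated and 0.76 in the non-irradiated primary (-2.36 ± 0.25, adjusted p = 0.0236). For all 4 genes every nodule lay below the irradiated primary, and Loxl1 and Ccn1 also fell against the non-irradiated primary (-1.47 and -1.07, adjusted p = 0.0130 and 0.0477).

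Against the non-irradiated primary, 11 of these 75 rose and 10 fell, with a median of -0.09, where limma called 9.74% of all features higher and 8.86% lower. Of the 10, 3 (Smoc1, Acan and Cilp) were well above background in the non-irradiated primary alone and entered the test only through it, and 1 of the 11, Efemp1, entered only through the nodules. The genes named next were chosen after their values were seen. Serpinh1, the collagen chaperone HSP47, had 4.11, 4.39 and 4.63 in the nodules, against 3.16 in the irradiated and 1.61 in the non-irradiated primary, a 6.81-fold rise against the non-irradiated primary (adjusted p = 0.0101). Fmod, fibromodulin, a collagen-binding proteoglycan, had 4.17, 4.58 and 4.77 in the nodules, against 3.23 in the irradiated and 1.48 in the non-irradiated primary, an 8.13-fold rise (adjusted p = 0.0106). The order of both was nodules, irradiated primary, non-irradiated primary, and neither passed against the irradiated primary (adjusted p = 0.0625 and 0.0741). Thbs4, a thrombospondin abundant in muscle and tendon, had -5.49, -3.60 and -3.02 in the nodules, against 0.75 in the irradiated and 2.58 in the non-irradiated primary, a log2 difference of -6.61 from the non-irradiated primary (adjusted p = 0.0202). Skeletal muscle markers fell in the nodules too. Their mean was 2.06 in the irradiated and 0.06 in the non-irradiated primary, and their part in the result was not tested. Acan, the cartilage proteoglycan aggrecan, was well above background in the non-irradiated primary only (-4.85), and its measured values in the nodules give only a bound, at least 3.42-fold lower.

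**Figure D5:**
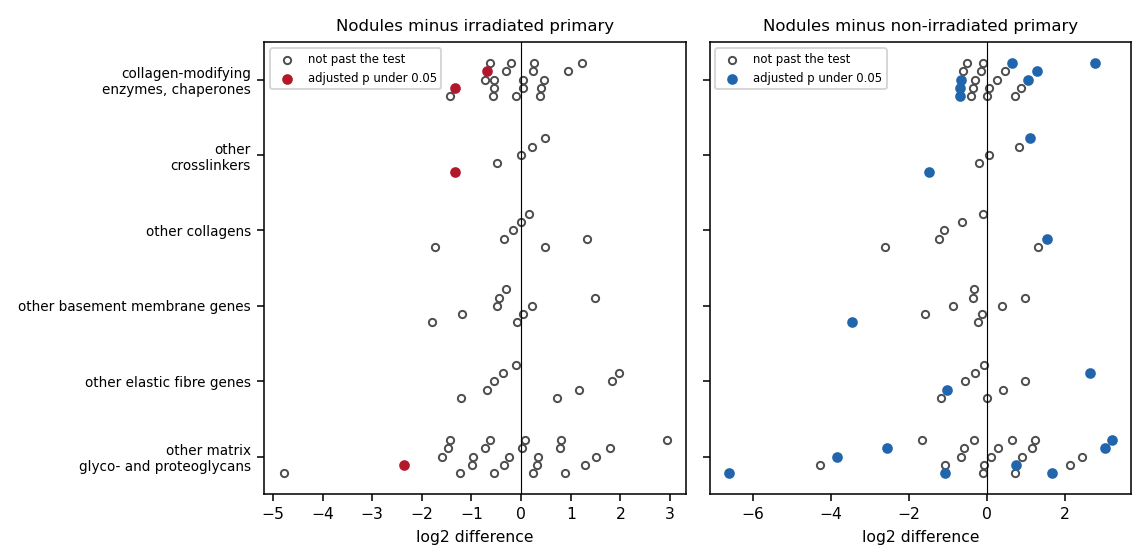
Log2 difference (horizontal axis) of the mean of 3 lung nodules from the irradiated primary (left panel) and from the non-irradiated primary (right panel) for 75 other matrix genes in 6 lists (vertical axis, points offset within a list). Filled points passed limma at an adjusted p under 0.05: 4 in the left panel, all below 0, and 11 above and 10 below 0 in the right panel.

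The stretches upstream of the members that passed a test are shown for the 5 of 7 with an entry in the RefSeq promoter table (build GRCr8): Col1a2 and Col5a3, which moved in opposite directions against the non-irradiated primary, Thbs1 and Tnc, which were high in the irradiated primary, and Postn, which was high in the non-irradiated one. Each is the 250 bases before the annotated start, 5′ to 3′ on the strand of the gene, and Eln and Col3a1 are named only. Capitals mark matches on either strand to the TATA box TATAAA, the CCAAT box CCAAT, the GC box GGGCGG, the AP-1 motif TGANTCA or the SMAD motif CAGACA. The windows are, in the order of the lines, chr4:33518307-33518556 (plus strand), chr8:27625949-27626198 (minus strand), chr3:125510000-125510249 (plus strand), chr5:82476132-82476381 (minus strand) and chr2:140677811-140678060 (plus strand).
Col1a2: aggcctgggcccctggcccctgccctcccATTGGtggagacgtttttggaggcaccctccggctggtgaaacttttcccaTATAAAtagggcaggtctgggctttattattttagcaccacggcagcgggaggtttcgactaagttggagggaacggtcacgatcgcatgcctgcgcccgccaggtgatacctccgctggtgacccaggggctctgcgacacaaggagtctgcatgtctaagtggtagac
Col5a3: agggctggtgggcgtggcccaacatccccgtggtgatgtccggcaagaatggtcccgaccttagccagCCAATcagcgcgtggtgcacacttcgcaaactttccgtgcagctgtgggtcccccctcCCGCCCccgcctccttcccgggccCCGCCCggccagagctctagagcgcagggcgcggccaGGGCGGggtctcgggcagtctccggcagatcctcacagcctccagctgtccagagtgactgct
Thbs1: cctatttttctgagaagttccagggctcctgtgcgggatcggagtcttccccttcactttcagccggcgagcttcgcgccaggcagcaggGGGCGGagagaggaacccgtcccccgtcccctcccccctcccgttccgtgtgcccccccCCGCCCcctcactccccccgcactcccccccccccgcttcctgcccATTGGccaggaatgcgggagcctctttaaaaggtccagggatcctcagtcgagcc
Tnc: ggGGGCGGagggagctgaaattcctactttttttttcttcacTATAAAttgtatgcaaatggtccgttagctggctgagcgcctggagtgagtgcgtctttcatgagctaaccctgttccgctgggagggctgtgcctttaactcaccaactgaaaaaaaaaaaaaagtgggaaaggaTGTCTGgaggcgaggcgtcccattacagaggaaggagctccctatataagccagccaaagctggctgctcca
Postn: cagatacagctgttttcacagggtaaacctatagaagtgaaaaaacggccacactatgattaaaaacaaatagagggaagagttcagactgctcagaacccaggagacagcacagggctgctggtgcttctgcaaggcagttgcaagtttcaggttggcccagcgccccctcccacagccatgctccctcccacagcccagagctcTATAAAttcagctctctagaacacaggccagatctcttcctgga

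Counted from -1 at the base before the start, and given by the first base of the match, Col1a2 held a TATA box at -170 and a reversed CCAAT box at -221, and Col5a3 held a CCAAT box at -182, a GC box at -63 and reversed GC boxes at -124 and -100. Thbs1 held a GC box at -160, a reversed GC box at -101 and a reversed CCAAT box at -55, and Tnc held a GC box at -248, a TATA box at -208 and a reversed SMAD motif at -72. Postn held a TATA box at -44 and no match to the other motifs. Of 33469 rat windows of the same length, 12.9% held the TATA box, 34.0% the CCAAT box, 30.5% the GC box, 6.34% the AP-1 motif and 17.2% the SMAD motif. Of the 24 listed genes with an entry, 4, 9, 13, 1 and 6 held them in that order, the AP-1 match in Col6a1. No 2 matches in the windows shown overlap, Thbs1 and Tnc share the GC box only, and a match is a description of these letters.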

How the data were processed

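Values came from 5 scanner files, 1 per sample. Per the file headers, the deposited intensity of a spot had its background subtracted and was detrended within its array by Agilent Feature Extraction 11.0, and per the submitters' processing notes the same tool was used. That software also set the deposited spot flags, which are other values of 0 or 1. The deposited log2 values of 18502 probes form a matrix whose making is not given in the sources used here. Its sorted columns differed by at most 0.000749, and it was used as an alternative only.

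Control spots and outlier spots (0.603 to 0.865% of gene spots) were left out, log2 signals of a probe's spots were averaged, and each array's 75th percentile was subtracted. The files hold no gene names, so RefSeq accessions were matched to the RefSeq gene table, which named 18354 of 30367 probes (60.4%). Arrays were compared by limma 3.58.1 in R 4.3.3 with 3 group means, eBayes with an intensity trend and 2 residual degrees of freedom, after a check on simulated data. The alternatives were array median scaling, quantile normalization, normexp (offset 50, on median spot signals) and 2 filters on dim probes. A fit without the trend, the mean over probes, the deposited matrix and leaving out each nodule completed the 11. The number of arrays limits the precision of these values. The members, lists and tests were chosen with earlier results of these data known. Values in all arrays are given for members past a test, members at least 2-fold apart between the primaries or between nodules, and at least the 2 brightest of each class. Of the other matrix genes, those past the test against the irradiated primary are named.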

Additional observations from a re-analysis of the deposited data

How the results depend on the processing

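No paired analysis was possible because each primary has 1 array and only the nodules carry numbers. Leaving out 1 nodule leaves 1 residual degree of freedom, and the number of called members then ranged over 0 to 11 against the irradiated primary and over 0 to 13 against the non-irradiated primary, with 14 to 3229 and 0 to 6469 features called in place of 704 and 3515. Without nodule 2 the features at an unadjusted p under 0.05 by limma numbered 5001 against the non-irradiated primary. Array median scaling called 438 and a fit with no intensity trend 399 features against the irradiated primary. The member median against the non-irradiated primary was 0.21 in the deposited matrix and 0.22 to 0.31 without 1 nodule, in place of 0.31. With all nodules kept, the number of called members stayed within 1.5 times under all 8 alternatives.

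Signs turned only for differences that passed no test. Against the irradiated primary these were Bgn (-0.025 after quantile normalization, -0.028 in the matrix, -0.036 to 0.12 without 1 nodule), Col1a1 (-0.12 over the mean of probes, -0.12 to 0.24 without 1 nodule), Fn1 (-0.17 to 0.11 without 1 nodule) and Lamc1 (-0.066 over the mean of probes). Against the non-irradiated primary they were Bgn (-0.0033 to 0.15 without 1 nodule), Col15a1 (-0.030 after quantile normalization, -0.095 in the matrix, -0.33 to 0.65 without 1 nodule), Col18a1 (-0.014 to 0.15 without 1 nodule) and Vcan (0.0019 over the mean of probes, -0.24 to 0.19 without 1 nodule). The cause was not tested. Between the primaries, 1532 features were 2-fold apart with normexp, in place of 3028. Dim probes, as of Fbln5 and Col11a1, give only a bound.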
